A study of Mus musculus with 6 samples.

Results

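The 10 genes described here are Hif1a and 9 enzymes of glycolysis (Hk2, Gpi1, Pfkl, Aldoa, Tpi1, Pgk1, Pgam1, Pkm and Ldha). They were chosen by gene symbol from the 10539 protein-coding genes of the deposited expression table, and all 10 were found and tested. The table gives RNA sequencing of alveolar macrophages, which take up particles and microbes in the lung's air spaces, from C57BL/6 mice. In 3 libraries (group CEBPβ) the cells overexpressed the transcription factor C/EBPβ. In the other 3 (group CEBPβ-A) such cells had also received A20-Ad, an adenovirus; A20 is the ubiquitin-editing brake on NF-κB signalling that Tnfaip3 encodes. Both groups thus carry the C/EBPβ overexpression. The sources used here do not give how it was made, which virus the CEBPβ cells received, the age of the mice or whether animals were pooled. The labels do not say that the libraries come from separate animals or cultures, so p-values here measure nothing wider than library-to-library spread, which could be technical.

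Glycolysis splits glucose into pyruvate in the cytosol and yields ATP and NADH; lactate dehydrogenase then turns pyruvate into lactate and regenerates NAD+. HIF-1α, the oxygen-regulated subunit encoded by Hif1a, pairs with ARNT on DNA elements whose core is often ACGTG. It is known to drive transcription of many glycolytic genes. Macrophages activated by microbial products are known for raised glycolysis and for HIF-1α that accumulates even with oxygen present, whereas resting alveolar macrophages, which live in a glucose-poor airspace, are known to rely less on glycolysis. HIF-1α is controlled largely through the stability of the protein, which transcript levels do not show.

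All 10 genes had a promoter window in the RefSeq table (GRCm38.p6). The 250 bases before the start of transcription were searched for ACGTG on both strands, and other forms of the core were not searched. The sequence CACGTG reads the same on both strands and holds overlapping matches, 1 on each. Matches were found in 7 of the 10 genes (Hif1a, Hk2, Aldoa, Pgk1, Pgam1, Pkm and Ldha) and in none of the windows of Gpi1, Pfkl and Tpi1. Of 7600 tested genes with a window, 26.4% had a match in at least 1 window, and of all 32851 windows 16.6% did. The 14 windows of the 10 genes had a GC content of 50.4% to 69.6%. A match is a description of the letters, not of binding. The windows of Hif1a, Ldha, Pgk1 and Hk2 are printed 5′ to 3′ in the direction of the gene, with matches in capitals. The first 3 belong to genes whose groups of libraries did not overlap in level, and Hk2 carries the motif while its groups overlapped. Over all 10 genes, the groups were apart for 3 of the 7 with a match and for 1 (Tpi1) of the 3 without. Among all tested genes, with or without a match, the groups were apart for 16.8%, in either direction. Whether matches and differences in level go together was not tested. Annotated exons cover 167, 53 and 138 of the 250 bases for Gpi1, Pfkl and Tpi1. In the Pkm window with a match they cover 140.
Hif1a: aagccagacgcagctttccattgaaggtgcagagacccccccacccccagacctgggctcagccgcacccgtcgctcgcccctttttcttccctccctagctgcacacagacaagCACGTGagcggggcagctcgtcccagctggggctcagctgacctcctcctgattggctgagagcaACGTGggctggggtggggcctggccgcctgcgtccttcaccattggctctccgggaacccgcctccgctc
Ldha: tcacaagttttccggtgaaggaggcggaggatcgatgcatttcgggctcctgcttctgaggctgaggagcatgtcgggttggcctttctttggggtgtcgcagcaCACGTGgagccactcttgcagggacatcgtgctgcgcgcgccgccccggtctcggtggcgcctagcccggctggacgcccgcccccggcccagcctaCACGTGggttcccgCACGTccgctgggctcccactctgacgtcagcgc
Pgk1: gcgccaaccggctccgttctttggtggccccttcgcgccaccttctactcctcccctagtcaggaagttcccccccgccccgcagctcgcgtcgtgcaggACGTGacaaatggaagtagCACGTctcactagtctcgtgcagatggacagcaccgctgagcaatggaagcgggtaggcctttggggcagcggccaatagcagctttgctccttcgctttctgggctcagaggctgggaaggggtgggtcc
Hk2: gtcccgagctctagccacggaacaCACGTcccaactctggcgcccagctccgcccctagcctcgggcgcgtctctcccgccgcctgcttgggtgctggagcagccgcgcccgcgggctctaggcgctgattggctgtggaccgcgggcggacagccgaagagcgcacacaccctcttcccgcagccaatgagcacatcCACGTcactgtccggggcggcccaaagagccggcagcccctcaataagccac

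These windows lie at chr12:73907617-73907866 on the plus strand (Hif1a), chr7:46845554-46845803 on the plus strand (Ldha), chrX:106186850-106187099 on the plus strand (Pgk1) and chr6:82774455-82774704 on the minus strand (Hk2), and no exon of GENCODE M21 overlaps them. The Hif1a and Ldha windows lie inside the annotated gene spans, since a RefSeq start used here is downstream of the outermost start. The Ldha window, upstream of the first of its listed RefSeq starts, had 5 matches. They begin 145, 144, 48, 47 and 34 bases before the start. Hif1a had 3 matches, at 135, 134 and 70 bases. Pgk1 had matches at 150 and 131 bases and Hk2 at 226 and 52 bases.

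Values are FPKM, fragments scaled by gene length and library total, which sets levels of different genes on a scale per length. Sequencing depth is unknown, since low FPKM values showed no clear whole-read steps, and the 10539 genes summed to between 278907 and 313215 FPKM per library. Pairwise correlations of log2(FPKM + 1) between libraries across genes ran from 0.973 to 0.99. CEBPβ-A replicate 3 stood apart from the other 5 (25.7 on a first principal component holding 44.3% of the variance, where they had −11.7 to −0.0954), so results are also given without it. Tnfaip3 was not higher in the libraries labelled CEBPβ-A (10.2 ± 4.53 FPKM against 15.2 ± 5.64, SD, n = 3 each), so the deposited values of the mouse gene do not show the A20 delivery, and each direction here is between libraries as labelled. Cebpb stood at 429 ± 66.6 FPKM in CEBPβ and 411 ± 70.5 in CEBPβ-A. All 12 alveolar macrophage markers were present, with Lyz2 at 19554 to 29717 FPKM. Of 10 epithelial markers 4 were listed, with a summed level of 69.2 FPKM in CEBPβ-A replicate 3 and 30.8 to 40.9 in the other 5 libraries. Of 8 neutrophil markers 3 were listed, chiefly S100a8, with sums of 298 to 317 FPKM in CEBPβ-A and 214 to 263 in CEBPβ. Of 6 monocyte markers 4 were listed, chiefly Itgam, with sums of 50.6 to 71.4 FPKM in CEBPβ-A and 71.5 to 76.9 in CEBPβ. Of 6 dendritic cell markers only Clec9a was listed, at 0.177 to 0.467 FPKM, and no listed marker was at 0 in all libraries. Their part in the results below was not tested, and 0 of 9 lymphocyte, 0 of 7 fibroblast and endothelial and 0 of 5 erythroid markers matched a listed gene, so these were not analysed here.

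In the libraries labelled CEBPβ-A, Hif1a had a lower mean and 6 of the 9 enzymes, from Aldoa to Ldha along the pathway, had higher means (Pgam1 turned to a lower one with quantile normalization), while Hk2, Gpi1 and Pfkl lay near their CEBPβ levels. In bulk RNA, fewer cells of a type and less RNA per cell cannot be told apart. The mean log2 fold changes ran from −0.29 (Hif1a) to 0.27 (Tpi1). None of the 10 passed the threshold of an adjusted p of 0.05 (limma fitted over all 9617 genes tested, Benjamini-Hochberg adjusted, lowest 0.588), where 0.0520% of all tested genes passed. At an unadjusted p under 0.05 there were 3 of the 10 (Hif1a, Tpi1 and Ldha) against 8.18% of all tested genes. All 3 libraries of CEBPβ-A lay above all 3 of CEBPβ for Tpi1, Pgk1 and Ldha, 3 of 10 against 7.89% of tested genes. They lay below for Hif1a, 1 of 10 against 8.86%. In either direction that is 4 of 10 against 16.8%. Since the genes were chosen with earlier results of these data known, these shares are descriptions. The median log2 fold change of the 10 genes was 0.13, against −0.013 over all genes tested. Without CEBPβ-A replicate 3 it was 0.063 against 0.001, with quantile normalization 0.002 against 0.006.

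**Figure D1:**
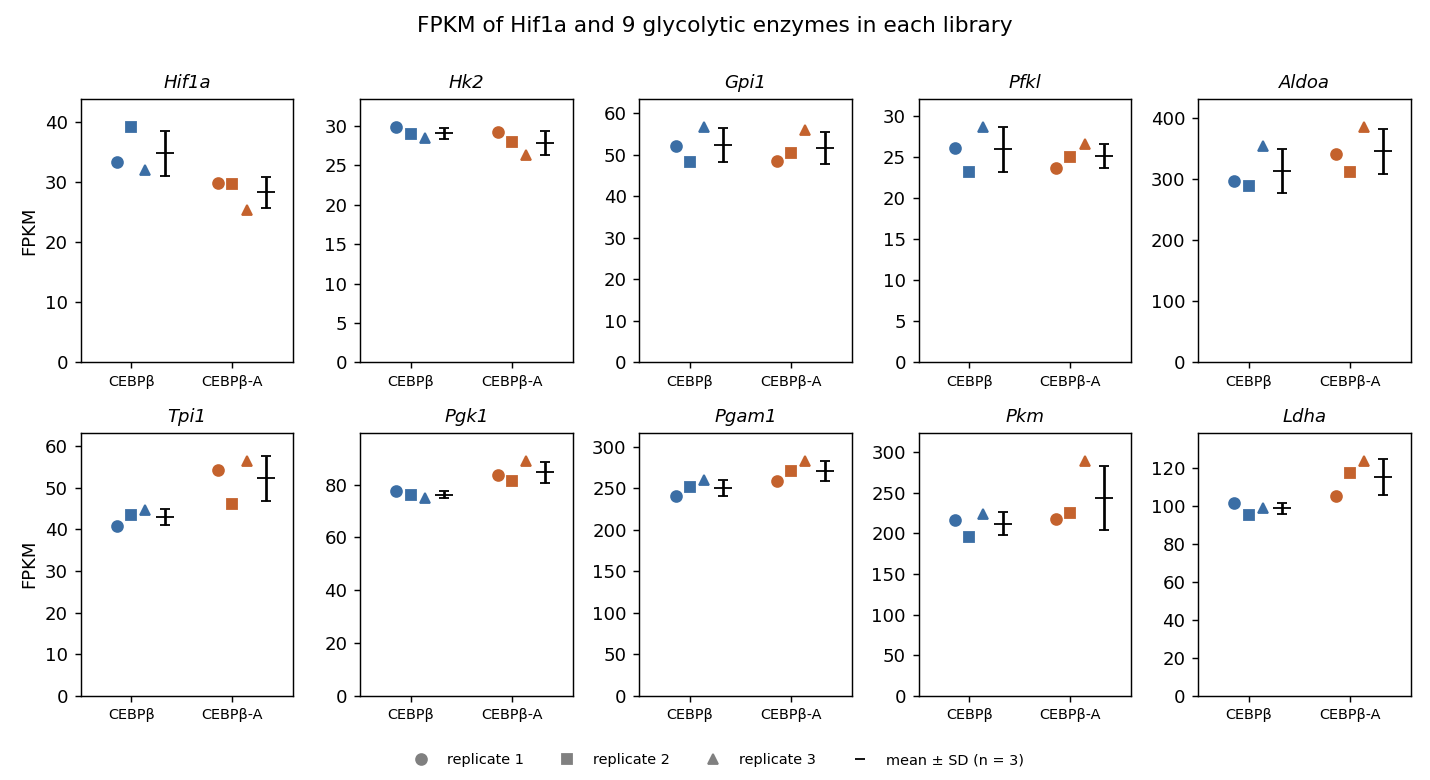
FPKM (vertical axes, each starting at 0) of the 10 genes in the 3 CEBPβ libraries (blue) and the 3 CEBPβ-A libraries (orange), with marker shapes for the replicate number and the mean ± SD in black. The groups do not overlap for Hif1a, Tpi1, Pgk1 and Ldha and overlap for the other 6, and Pkm in CEBPβ-A replicate 3 (289 FPKM) stands above its other 5 libraries.

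Hif1a (ENSMUSG00000021109.13, GRCm38 chromosome 12, 73901375 to 73947530) stood at 33.4, 39.2 and 32.0 FPKM in CEBPβ replicates 1, 2 and 3 and at 29.9, 29.7 and 25.4 FPKM in CEBPβ-A replicates 1, 2 and 3. Each CEBPβ-A library was below each CEBPβ library, with CEBPβ-A replicate 3 the lowest. The means were 34.9 ± 3.78 and 28.3 ± 2.56 FPKM (SD, n = 3 each), so the CEBPβ mean was 1.23-fold higher. The difference did not pass (log2 fold change −0.29, SE 0.10, 95% confidence interval −0.53 to −0.048, limma adjusted p = 0.588). Without CEBPβ-A replicate 3 it was −0.21 (SE 0.10, adjusted p = 0.912). The groups stayed apart there by 32.0 against 29.9 FPKM, the nearest pair of libraries. Its annotated span overlaps Gm49321 on the same strand and Gm15283 on the other, and whether the deposited values were counted by strand is not given.

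The first steps, which spend ATP to trap and split glucose, showed the smallest differences with all 6 libraries. Without CEBPβ-A replicate 3, Gpi1 (−0.076) and Pfkl (−0.085) were further from 0 than Aldoa and Pkm, and after quantile normalization Hk2, Gpi1 and Pfkl were further from 0 than Aldoa and Pgam1. Hk2, the inducible hexokinase that phosphorylates glucose, stood at 29.8, 28.98 and 28.4 FPKM in CEBPβ and at 29.3, 28.0 and 26.3 in CEBPβ-A. The groups overlapped (log2 fold change −0.061, 95% confidence interval −0.23 to 0.11, limma adjusted p = 0.759). Gpi1, which isomerises glucose 6-phosphate to fructose 6-phosphate, stood at 52.1, 48.3 and 56.5 FPKM in CEBPβ and at 48.5, 50.5 and 55.9 in CEBPβ-A, with overlapping groups (−0.018, interval −0.22 to 0.19). Pfkl, the liver-type subunit of phosphofructokinase, which commits the sugar to glycolysis, stood at 26.1, 23.2 and 28.6 FPKM in CEBPβ and at 23.7, 25.0 and 26.6 in CEBPβ-A. Its groups overlapped too (−0.043, interval −0.26 to 0.18). For these 3 enzymes the intervals together ran from −0.26 to 0.19 on the log2 scale, and the sign of each of their small differences changed under at least 1 other way of processing.

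Aldoa and Tpi1 produce and interconvert the triose phosphates. Aldoa, the aldolase that cleaves fructose 1,6-bisphosphate, stood at 297, 289 and 354 FPKM in CEBPβ and at 341, 312 and 385 in CEBPβ-A. The third CEBPβ library lay above 2 of the 3 CEBPβ-A libraries (log2 fold change 0.14, SE 0.11, limma adjusted p = 0.655; 0.062 without CEBPβ-A replicate 3). Tpi1 (ENSMUSG00000023456.14, chromosome 6, 124810586 to 124814296), triose phosphate isomerase, stood at 40.8, 43.5 and 44.7 FPKM in CEBPβ and at 54.2, 46.1 and 56.5 in CEBPβ-A. All CEBPβ-A libraries were higher, replicate 2 by the least. The means were 43.0 ± 1.997 and 52.2 ± 5.46 FPKM, a ratio of 1.21, and the difference did not pass (log2 fold change 0.27, SE 0.09, 95% confidence interval 0.055 to 0.49, limma adjusted p = 0.588; 0.21 without CEBPβ-A replicate 3). After quantile normalization the groups of Tpi1 overlapped (0.22).

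The later steps return ATP. Pgk1 (ENSMUSG00000062070.12, chromosome X, 106187100 to 106203699), phosphoglycerate kinase and the first ATP-producing enzyme, stood at 77.5, 76.0 and 75.1 FPKM in CEBPβ and at 83.5, 81.4 and 89.0 in CEBPβ-A. Its CEBPβ libraries were the closest to each other in relation to their mean, 76.2 ± 1.24 FPKM, against 84.6 ± 3.95 in CEBPβ-A. The difference of 0.15 on the log2 scale (SE 0.07, limma adjusted p = 0.588) became 0.11 without CEBPβ-A replicate 3. Pgam1, phosphoglycerate mutase, stood at 240.4, 252 and 259.8 FPKM in CEBPβ and at 259, 271 and 283 in CEBPβ-A. Its groups overlapped by the narrowest margin, with the highest CEBPβ library just above the lowest of CEBPβ-A (0.11, SE 0.07, limma adjusted p = 0.610), and the sign turned to −0.028 after quantile normalization.

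Pkm, pyruvate kinase, which makes pyruvate and ATP, stood at 217, 196 and 223 FPKM in CEBPβ and at 218, 225 and 289 in CEBPβ-A. Its higher mean (244 ± 39.3 against 212 ± 14.2 FPKM) rested on CEBPβ-A replicate 3: the log2 fold change was 0.19 (SE 0.12, limma adjusted p = 0.602) with that library and 0.064 without it. The table gives 1 value for the gene, so the M1 and M2 splice forms of Pkm are not told apart.

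Ldha (ENSMUSG00000063229.15, chromosome 7, 46841475 to 46855627), the lactate dehydrogenase subunit that favours lactate production, stood at 101, 95.2 and 98.7 FPKM in CEBPβ and at 105, 117 and 123 in CEBPβ-A. All CEBPβ-A libraries were higher, replicate 1 only slightly. The means were 98.5 ± 3.11 and 115 ± 9.34 FPKM, a ratio of 1.17, and the difference did not pass (log2 fold change 0.22, SE 0.08, 95% confidence interval 0.033 to 0.41, limma adjusted p = 0.588; 0.17 without CEBPβ-A replicate 3). Without CEBPβ-A replicate 3, 0 of the 10 genes had an unadjusted p under 0.05, where 5.34% of all tested genes did, and 0 passed the adjusted threshold, where 0.0933% did. The groups of Hif1a, Tpi1, Pgk1 and Ldha still did not overlap (4 of 10 against 22.2% of tested genes), which follows from their being apart with all 6 libraries.

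**Figure D2:**
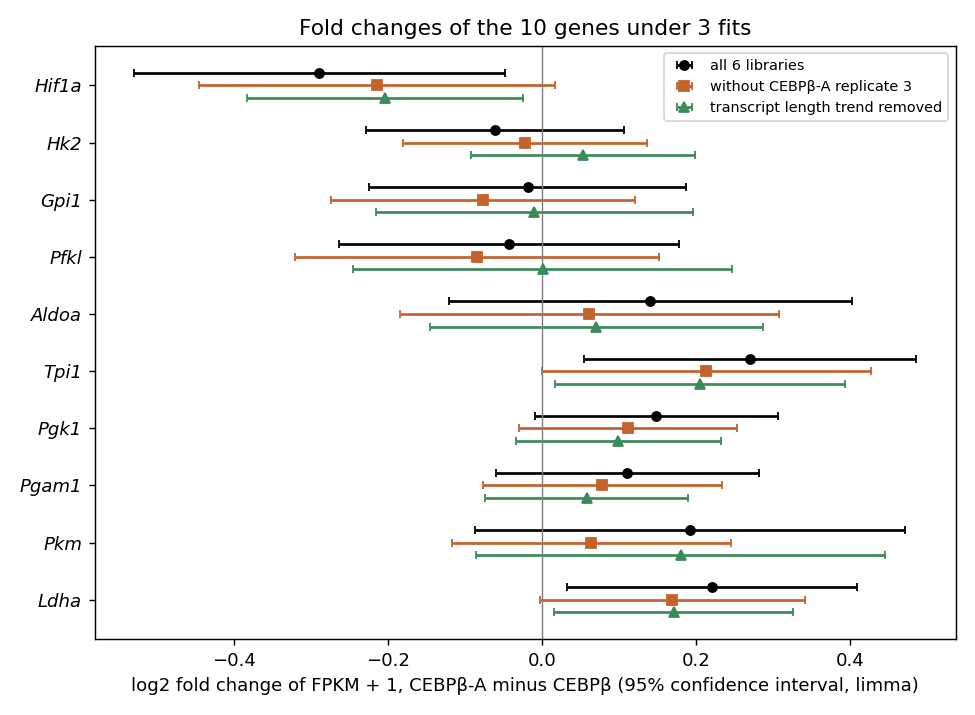
Log2 fold changes of FPKM + 1, CEBPβ-A minus CEBPβ, with limma's 95% confidence intervals (horizontal axis) for the 10 genes, with all 6 libraries (black), without CEBPβ-A replicate 3 (orange) and with the trend on transcript length removed (green). With all libraries the unadjusted intervals of Hif1a (−0.53 to −0.048), Tpi1 (0.055 to 0.49) and Ldha (0.033 to 0.41) leave out 0, and without CEBPβ-A replicate 3 Pkm moves from 0.19 to 0.064.

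The 9 enzymes together held 1082, 1052 and 1170 FPKM in CEBPβ replicates 1, 2 and 3 and 1162, 1155 and 1335 in CEBPβ-A replicates 1, 2 and 3. That is 0.389% ± 0.0135 and 0.410% ± 0.0137 of the summed FPKM of the table (SD, n = 3 each). The groups overlapped in the FPKM sum, since CEBPβ replicate 3 exceeded the first and second replicates of CEBPβ-A. The median deviation of the 9 enzymes from their CEBPβ means was 0.046, 0.089 and 0.22 (log2) in CEBPβ-A replicates 1, 2 and 3. Over all tested genes the medians were −0.0029, 0.010 and −0.038. In CEBPβ-A replicate 3, Hif1a deviated by −0.44, Pkm by 0.45, Tpi1 by 0.39 and Ldha by 0.32, and 8 of the 9 enzymes were above their CEBPβ mean, Hk2 (−0.14) being the exception. In CEBPβ-A replicates 1 and 2, Hif1a stood at −0.21 and −0.22, and 7 and 5 enzymes were above.

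**Figure D3:**
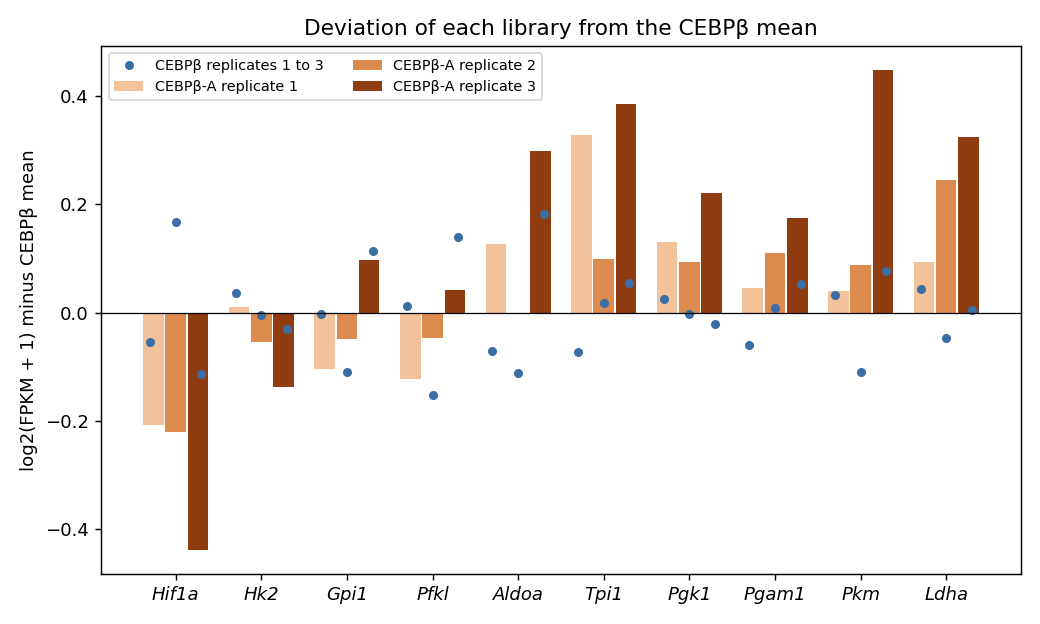
Log2(FPKM + 1) of each library minus the mean of the CEBPβ libraries (vertical axis) for the 10 genes, with bars for CEBPβ-A replicates 1 to 3 and points for the CEBPβ libraries. The bar of CEBPβ-A replicate 3 is the longest of the 3 for 8 of the 10 genes, Gpi1 and Pfkl being the exceptions, and reaches −0.44 for Hif1a and 0.45 for Pkm.

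Fold changes in this comparison followed transcript length across all tested genes (Spearman rho −0.55 across 9569 genes with a length, which are not independent of each other, and −0.33 without CEBPβ-A replicate 3). The median log2 fold change was 0.13 for genes whose longest coding transcript was shorter than 1500 bases, 0.050 from 1500 to 2500, −0.012 from 2500 to 4000 and −0.12 from 4000 bases up. The 6 enzymes with higher means in CEBPβ-A have transcripts of 1549 (Aldoa) to 2432 bases (Pkm). Gpi1 and Pfkl have 2884 and 3730 bases, and Hif1a and Hk2 have 4724 and 5513 bases. With the length trend removed within each library, the log2 fold changes were −0.20 for Hif1a, 0.20 for Tpi1, 0.17 for Ldha, 0.18 for Pkm, 0.10 for Pgk1, 0.07 for Aldoa and 0.058 for Pgam1. Hk2 turned from −0.061 to 0.053. The median of the 10 genes was then 0.064, against 0.009 over all genes tested. The groups of Hif1a, Tpi1, Pgk1 and Ldha did not overlap in that fit either, 3 of 10 higher against 6.90% of tested genes and 1 of 10 lower against 6.13%. In that fit 0 of the 10 passed (lowest limma adjusted p = 0.713), where 0.0836% of tested genes did.

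**Figure D4:**
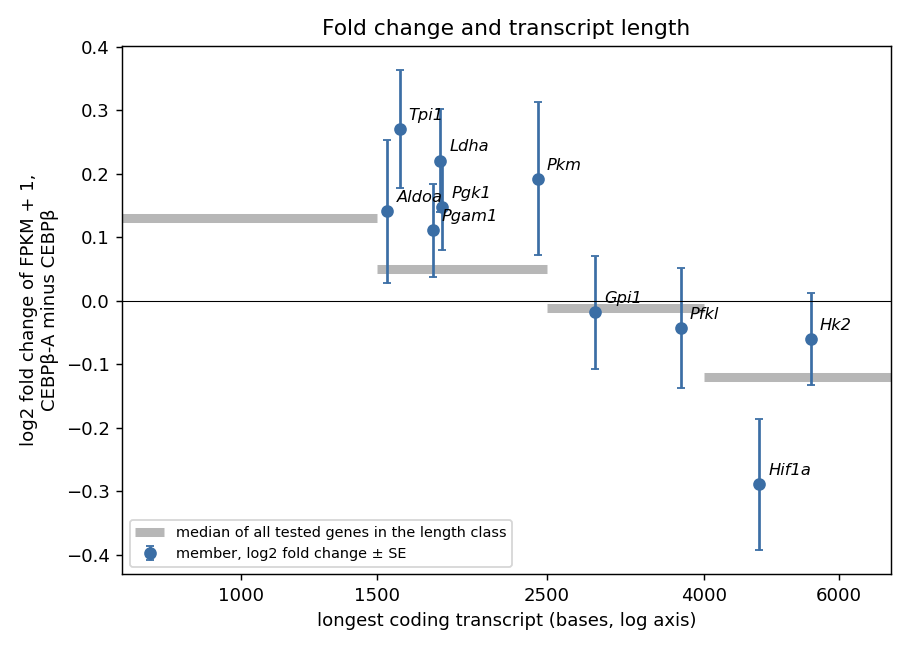
Log2 fold change of FPKM + 1, CEBPβ-A minus CEBPβ (vertical axis, points with SE), against the length of the longest coding transcript in bases (log axis) for the 10 genes. Grey bars give the median of all tested genes in 4 length classes, from 0.13 in the shortest to −0.12 in the longest; Hif1a (−0.29) lies below and Tpi1 (0.27), Ldha (0.22) and Pkm (0.19) lie above the median of their class.

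By level per length, Aldoa was the highest of the 10 at a mean of 330 FPKM over the 6 libraries (the 99.0th percentile of tested genes) and Pfkl the lowest at 25.5 FPKM (the 82.4th). Between them came Pgam1 (261), Pkm (228), Ldha (107), Pgk1 (80.4), Gpi1 (52.0), Tpi1 (47.6), Hif1a (31.6) and Hk2 (28.5 FPKM). The ranges over the 6 libraries overlapped between the neighbours Pgam1 and Pkm, Gpi1 and Tpi1, Hif1a and Hk2, and Hk2 and Pfkl. They did not overlap between the other neighbours, of which Pkm and Ldha were the furthest apart (2.13-fold). In GRCm38, Hk2 (ENSMUSG00000000628.10) on chromosome 6 from 82725025 to 82774454 and Gpi1 (ENSMUSG00000036427.5) on chromosome 7 from 34201330 to 34230336 lie on the minus strand. So do Pfkl (ENSMUSG00000020277.10) on chromosome 10 from 77986947 to 78010083 and Aldoa (ENSMUSG00000030695.16) on chromosome 7 from 126795234 to 126800751. On the plus strand are Pgam1 (ENSMUSG00000011752.6) on chromosome 19 from 41911871 to 41918664 and Pkm (ENSMUSG00000032294.17) on chromosome 9 from 59656368 to 59679375. Each value covers the whole gene. Part of these levels is uncertain because annotated copies share sequence. Of the members, Pgk1 had 4 other annotated genes with at least 95% identity over at least 300 bases, Ldha had 3, and Gpi1, Tpi1, Pgam1 and Pkm had 1 each. All of these copies are pseudogenes, and how shared reads were assigned is not given.

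Most glycolytic steps have several isoenzymes, and their shares of a step overlapped between the groups. Hk2 made up 49.9% ± 3.50 of the summed FPKM of Hk1, Hk2 and Hk3 in CEBPβ and 48.1% ± 1.87 in CEBPβ-A (SD, n = 3 each). Hk3, a hexokinase of myeloid cells, made up 42.6% ± 2.65 and 45.2% ± 2.42. Pfkl held 76.3% ± 1.07 and 76.4% ± 2.39 of the phosphofructokinase FPKM, with Pfkp at 17.3% ± 1.09 and 18.9% ± 1.44. Aldoa held 90.6% ± 0.865 and 90.8% ± 0.809 of Aldoa plus Aldoc. Ldha held 94.1% ± 1.21 and 94.0% ± 0.728 of Ldha plus Ldhb, whose subunit favours the use of lactate. The groups overlapped for each of these shares.

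**Figure D5:**
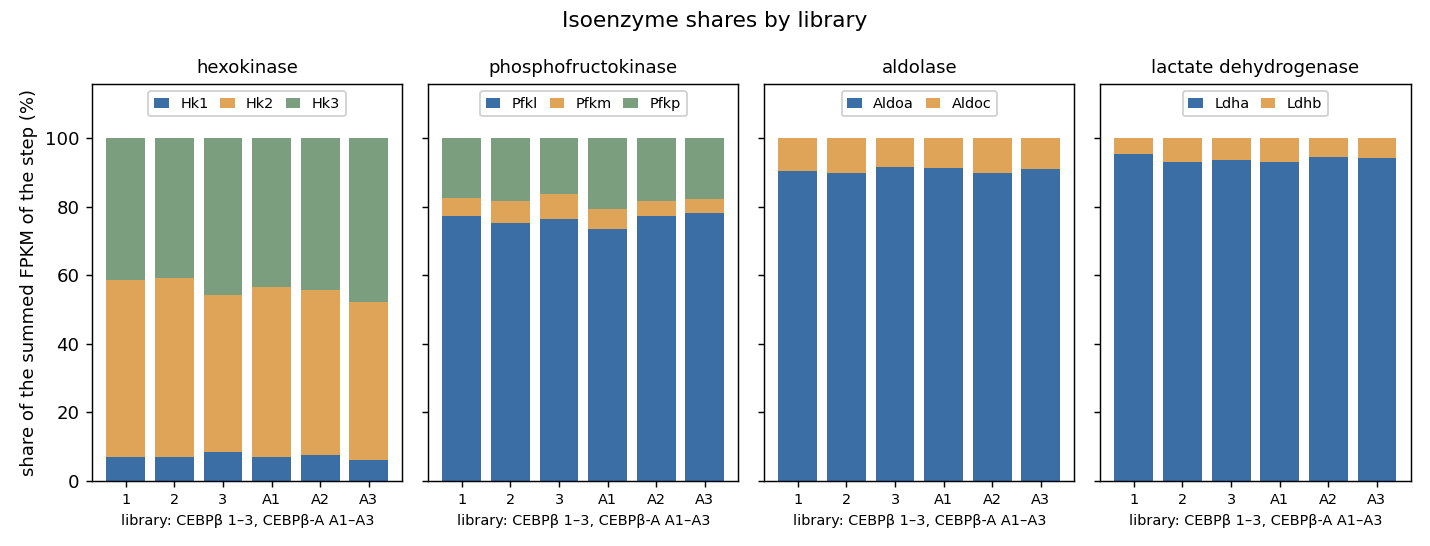
Share of each isoenzyme gene in the summed FPKM of its step (vertical axis, %) in the 3 CEBPβ libraries (1 to 3) and the 3 CEBPβ-A libraries (A1 to A3). Hk2 and Hk3 hold most of the hexokinase FPKM (49.9% and 42.6% in CEBPβ), while Pfkl, Aldoa and Ldha each dominate their step in every library.

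Of the other glycolytic enzymes, 14 of 19 listed by name were tested, and 0 passed in either direction (limma over all genes tested). At an unadjusted p under 0.05 there was 1 of the 14, against 8.18% of all tested genes. That share also stands beside such counts for the lists below. The 14 genes had a median log2 fold change of 0.09, with 10 positive, where 46.6% of all tested genes were positive. Bpgm, which makes 2,3-bisphosphoglycerate, stood at 2.54 ± 0.0117 FPKM in CEBPβ and 3.09 ± 0.0809 in CEBPβ-A with groups that did not overlap (log2 fold change 0.21, limma adjusted p = 0.588). Pfkm, the muscle-type phosphofructokinase, had −0.31, Eno2, an enolase, 0.20, and Gapdh, which oxidises glyceraldehyde 3-phosphate, 0.23, each with overlapping groups. Gapdh was listed at only 36.8 to 52.9 FPKM, below Aldoa, Pgam1, Pkm, Ldha and Pgk1 in every library. It has 77 other annotated genes with at least 95% identity over 300 bases, so its level and fold change are uncertain. Eno1 (45.6 ± 4.50 and 48.4 ± 2.94 FPKM) and its near-identical copy Eno1b (44.5 ± 6.20 and 52.1 ± 6.67 FPKM; 99.5% identity over 1736 bases) may split the reads of 1 enolase.

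Of 10 glucose and lactate transport genes 7 were tested and 0 passed (1 at an unadjusted p under 0.05; median −0.023). Slc2a6, a hexose transporter of the lysosome, stood at 4.69 ± 0.104 FPKM in CEBPβ and 3.75 ± 0.327 in CEBPβ-A with groups that did not overlap (log2 fold change −0.26, limma adjusted p = 0.588). The monocarboxylate transporters Slc16a7 and Slc16a3 had −0.16 and −0.044 and turned to 0.068 and 0.026 with the length trend removed. Bsg, a chaperone of some monocarboxylate transporters, had 0.14, which was 0.026 without CEBPβ-A replicate 3. Of 13 genes that set glycolytic flux 9 were tested and 0 passed (1 at an unadjusted p under 0.05; median 0.015). Pdp1, a phosphatase that activates pyruvate dehydrogenase, stood at 2.91 ± 0.240 and 2.23 ± 0.217 FPKM with groups that did not overlap (−0.27). Pfkfb2 and Pfkfb4, which set fructose 2,6-bisphosphate, had −0.37 (−0.18 without CEBPβ-A replicate 3) and −0.15, and Pdk4, a kinase that inhibits pyruvate dehydrogenase, had 0.12.

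Of 13 HIF subunits and regulators 10 were tested, 0 passed and 9 had negative fold changes, where 46.6% of all tested genes were positive (1 at an unadjusted p under 0.05; median −0.069). Hif1an, the asparagine hydroxylase that blocks the HIF-1α activation domain, stood at 8.72 ± 0.585 and 7.17 ± 0.606 FPKM with groups that did not overlap (−0.25). The coactivators Ep300 and Crebbp had −0.33 and −0.25 (−0.13 and −0.089 without CEBPβ-A replicate 3), and Rbx1, part of the ligase that degrades HIF-1α, had 0.19. Several of these are long transcripts. With the length trend removed Hif1an stood at −0.12 with overlapping groups, Ep300 at −0.12 and Crebbp at −0.023, and the list had a median of −0.041 with 7 negative. Also without CEBPβ-A replicate 3, 5 were positive and 5 negative. Of 21 symbols for other HIF-1 targets (Ero1l and Ero1a name the same gene) 11 were tested and 0 passed, with 0 at an unadjusted p under 0.05. Their median was 0.028, against −0.013 over all genes tested, with Higd1a at 0.25, Fam162a at 0.13 (−0.062 without CEBPβ-A replicate 3), Mxi1 at 0.077 and Ero1l at −0.14. Without that library Mxi1 had 0.034 and Ero1l −0.030. For 0 of the 11 were the groups apart with all 6 libraries, against 16.8% of tested genes. Without CEBPβ-A replicate 3 they were apart for 1, Kdm3a, against 22.2%.

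Of 8 pentose phosphate pathway genes, all tested, 0 passed (1 at an unadjusted p under 0.05; median 0.096, 0.026 after quantile normalization and 0.023 without CEBPβ-A replicate 3). Pgls, which hydrolyses 6-phosphogluconolactone, stood at 12.0 ± 1.79 and 15.0 ± 1.23 FPKM (0.31) and Taldo1, transaldolase, at 262 ± 11.2 and 302 ± 28.5 FPKM (0.20), with groups that did not overlap. The groups of both overlapped with the length trend removed (0.20 for Pgls and 0.11 for Taldo1) and after quantile normalization (0.33 and 0.068), and without CEBPβ-A replicate 3 Taldo1 had 0.13. Shpk, sedoheptulokinase, had −0.18, with CEBPβ-A libraries all below CEBPβ in each of these fits. G6pdx, the entry enzyme, had 0.12 with overlapping groups (0.061 without CEBPβ-A replicate 3). Of 23 genes of pyruvate entry and the citrate cycle, all tested, 0 passed, 20 had positive fold changes (46.6% of all tested genes had) and 6 had CEBPβ-A libraries all above CEBPβ, against 7.89% of tested genes, with 1, Dlst (−0.19), all below, against 8.86% (3 at an unadjusted p under 0.05; median 0.074). With the length trend removed 20 were positive, against 52.9% of all tested genes, and 2 had CEBPβ-A libraries all above, against 6.90%. The mitochondrial pyruvate carrier subunit Mpc2 stood at 11.6 ± 1.09 and 14.002 ± 0.464 FPKM (0.26). The isocitrate dehydrogenase subunits Idh3a, Idh3g and Idh3b had 0.23, 0.24 and 0.17. With the length trend removed the groups of Mpc2 (0.14) and Idh3g (0.16) overlapped, and those of Idh3a (0.22) and Idh3b (0.11) did not. Without CEBPβ-A replicate 3 Mpc2 had 0.28, Idh3a 0.25, Idh3g 0.15 and Idh3b 0.11. No gene of these 7 lists passed, and their lowest limma adjusted p was 0.588.

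The 3 other tested genes whose centred log2 values over the 6 libraries lay nearest to those of Hif1a were Ropn1l, Irgm1 and Cep120, with root mean square differences of 0.035, 0.037 and 0.041. Ropn1l averaged only 1.55 FPKM, near the filter of 1, where log2(FPKM + 1) makes differences look smaller. Irgm1 and Cep120 averaged 12.3 and 7.52 FPKM. The nearest of the 10 genes to Hif1a was Hk2, at 0.15. For Aldoa, the enzyme with the highest mean, the nearest of the 10 was Pkm at 0.096. These likenesses are descriptions over 6 libraries searched among all tested genes.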

How the data were processed

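RNA was taken with Trizol and made into stranded libraries with a KAPA kit, per the labels' protocols. The authors deposited 1 table of FPKM values for 6 libraries, per the file headers. Per the submitters' processing notes, the build was GRCm38. Which aligner, FPKM program and annotation were used, and whether strand was used in counting, is not given in the sources used here. All 6 value columns were used. Low FPKM values of genes with 1 transcript had a periodicity of 0.131 to 0.162 (1 for perfect whole-read steps), so no counts were recovered and no counting interval is given.

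The 9617 genes averaging 1 FPKM or more were tested on log2(FPKM + 1), a scale that makes changes of low genes look smaller. The model was limma 3.58.1 under R 4.3.3, with its intensity trend, two-sided tests, Benjamini-Hochberg adjustment over these genes and a threshold of 0.05. Lengths are the longest coding transcript in GENCODE M21 (GRCm38), available for 99.5% of tested genes; length trends were removed by loess (span 0.5). Copies were sought with blastn. The fit was also run on simulated data without a length trend and with changes larger than those of the 10 genes. That run does not show how it performs for changes of their size. The alternatives were 2 other pseudocounts, 2 filters, 3 scalings, 2 limma priors, a replicate block, the length trend and each library left out; 1 more, combining the last 2, was chosen after seeing the data. The members and lists were chosen with earlier results of these data known. Named are the 10 members, up to 4 genes per list by p (Eno1, Eno1b and the isoenzymes of the members were named beside them, and Dlst and Kdm3a after their values were seen), the genes with patterns nearest to Hif1a (those nearest to Aldoa are not reported here) and up to 2 markers per list by level. Genes of the lists that were not tested are not analysed here.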

Additional observations from a re-analysis of the deposited data

How the results depend on the processing

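In 18 alternatives, 0 of the 10 genes and 0 of the genes of the 7 lists passed (adjusted p of the members from 0.372 to 0.999). Hif1a kept its negative sign and Aldoa, Tpi1, Pgk1, Pkm and Ldha their positive sign in all 18. Signs turned for Hk2 with the length trend removed (0.053; 0.023 also without CEBPβ-A replicate 3), for Pfkl with it removed (0.001) or without CEBPβ replicate 3 (0.027; −0.119 to 0.027 with single libraries left out), for Gpi1 with median-of-ratios scaling (0.002), without CEBPβ replicate 3 (0.038) or CEBPβ-A replicate 1 (0.024; −0.076 to 0.038 with single libraries left out), and for Pgam1 with quantile normalization (−0.028). The median of the members was 0.002 with quantile normalization and 0.035 with the length trend removed and without CEBPβ-A replicate 3, and with single libraries left out it ran from 0.063 (without CEBPβ-A replicate 3) to 0.146. Groups did not overlap for 4 to 7 of the 10 genes with single libraries left out. The 7 came without CEBPβ replicate 3 (6 above and 1 below, against 14.8% and 19.2% of tested genes). They also came without CEBPβ-A replicate 1 (5 above and 2 below, against 15.8% and 17.5%). With all 6 libraries these shares were 7.89% and 8.86%. With quantile normalization 2 of the 10 were above and 1 below, against 8.16% and 7.82%. The number of all tested genes that passed, 5, was 8 with the length trend removed, with or without CEBPβ-A replicate 3. It was 0 with a mean FPKM of at least 5, 2 with quantile normalization and 1 with the replicate block. With single libraries left out it ran from 1 to 9 (9 without CEBPβ-A replicate 3, 1 without CEBPβ-A replicate 1, 2 without CEBPβ replicate 3, 3 without CEBPβ replicate 1 or CEBPβ-A replicate 2). The cause of these moves was not tested.

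Same-numbered libraries deviated together with r = 0.0993, 0.247 and 0.259 for numbers 1, 2 and 3, so by a minimum of 0.1 the numbers were not taken to pair the libraries, although each of the 6 correlated best with its own number. With the replicate block the lowest adjusted p of the members was 0.372 (limma). Their fold changes were the same as without it. Their SEs ran from 0.054 (Pgam1) to 0.084 (Pkm), against 0.068 (Pgk1) to 0.12 (Pkm) without the block. Each of the 10 genes had a smaller SE with the block, for example Hif1a (0.074 against 0.104) and Aldoa (0.056 against 0.113). At an unadjusted p under 0.05 there were 3 of the 10 in the block fit, against 13.4% of tested genes. Depth is unknown, and 3 libraries per group limit the precision.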
